A study of Mus musculus with 12 samples.

Results

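CBP-AA p53ΔIEC colonic crypts were compared with CBP-WT p53ΔIEC colonic crypts, that is, the effect of 2 serine-to-alanine substitutions in the acetyltransferase CBP was read where the intestinal epithelium had lost p53. The members were chosen by the sample titles alone: 3 libraries titled p53koAA and 3 titled p53koWT, 6 of the 12 libraries of the series. The comparison ran across all genes with enough reads, 14610 of the 55471 listed. The mice of both groups carried floxed alleles of Trp53 recombined by Villin-Cre, which acts in epithelial cells of the small and large intestine and leaves p53 in all other cells. The CBP-AA mice carried in addition a Crebbp knock-in allele in which Ser1383 and Ser1387 are alanine; the CBP-WT mice were their littermate controls with normal Crebbp. All were C57BL/6J by the labels and 8-week-old females by the study's methods, the knock-in having been made in embryonic stem cells with a neomycin cassette and then backcrossed to C57BL/6. The methods name different strains for these stem cells in different places, so the origin of the sequence flanking Crebbp is not settled here. The other 6 libraries are the same 2 CBP genotypes with p53 floxed and intact, and enter in 2 ways: they share the fit, and so the estimate of spread behind every p-value, and their values are set beside some results. Each library is 1 mouse. Crypts were released with EDTA, so fewer cells of a type and less RNA per cell cannot be told apart in any result below.

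CBP, encoded by Crebbp, and its paralog p300, encoded by Ep300, are histone acetyltransferases and coactivators that many transcription factors recruit, among them p53, CREB, the STAT proteins and NF-κB. CBP is a limited resource in the cell, and phosphorylation by the kinase IKKα at the serines altered here is known to shift its preference between p53 and NF-κB. The p53 protein restrains the cell cycle and promotes cell death after damage. In the colon, the crypt base holds Lgr5+ stem cells, and their daughters become absorptive colonocytes and goblet, enteroendocrine and tuft cells as they move up. The comparison without p53 asks what the substitution does to the crypt transcriptome when this partner is gone from the epithelium.

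The altered codons lie in exon 25 of the 31 exons of Crebbp, on the minus strand at chr16:4094275-4094319 (GRCm38). The unmutated coding sequence of codons 1380 to 1394, from the GENCODE M21 transcript, is given because it is what separates the genotypes; capitals mark the serine codons 1383 and 1387 in the order of the coding strand.
Crebbp, codons 1380 to 1394: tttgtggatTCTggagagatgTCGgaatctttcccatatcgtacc
The knock-in bases themselves were not analysed here, since the files hold counts per gene.

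Library sizes ran from 11701629 to 15430789 counts in the 6 libraries. The deposited transcript abundances (TPM) adjust for gene length and library size and place levels of different genes on 1 scale. Trp53 was at 5.44, 3.26 and 4.15 TPM in the CBP-WT p53ΔIEC libraries and at 5.05, 4.66 and 6.13 TPM in the CBP-AA p53ΔIEC libraries. All 6 lay below the 23.3 to 33.5 TPM of the p53-floxed libraries, as the labels say, and the 2 CBP genotypes overlapped. In a fit without CBP-WT 1 and CBP-AA 3, taken up below, Trp53 had a log2 fold change of 0.46 (edgeR unadjusted p = 0.0147) and was not called. Crebbp mRNA was at 5.98, 7.6 and 9.69 TPM in CBP-WT and at 8.64, 10.3 and 8.93 TPM in CBP-AA p53ΔIEC crypts. Its log2 fold change of CBP-AA over CBP-WT was 0.24 (95% interval -0.04 to 0.52), so a change in the level of the altered gene itself was not detected. Ep300 was at 9.24, 14.3 and 17.6 TPM in CBP-WT and at 16.5, 17.6 and 19.5 TPM in CBP-AA, a log2 fold change of 0.37 (95% interval -0.01 to 0.76), with 1 CBP-WT library reaching into the CBP-AA range.

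The libraries were not alike in transcripts that mark gut regions, and how this came about was not tested. Epithelial transcripts were abundant in all 6, with Epcam between 1218 and 1477 TPM, and the colon transcripts Car1 and Slc26a3 were present throughout. Paneth cells belong to the small intestine in the mouse, yet the Paneth defensin Defa24 was at 8290, 21.1 and 0.466 TPM in CBP-WT p53ΔIEC and at 1079, 19.8 and 1913 TPM in CBP-AA p53ΔIEC libraries. Fabp6, an ileal bile acid-binding protein, followed the same libraries at 1629, 17.8 and 10.6 TPM in CBP-WT and 453, 20.1 and 499.6 TPM in CBP-AA. CBP-WT library 1 and CBP-AA libraries 1 and 3 thus held small intestinal transcripts, at odds with the label of colonic crypts. Cd74, the invariant chain of MHC class II, was also high there, at 415, 4.18 and 16.4 TPM against 138, 19.7 and 226 TPM. The proliferation marker Mki67 went the other way in both extremes, with 30.6 TPM in CBP-WT library 1 and 25.7 TPM in CBP-AA library 3 against 75.7 to 107 TPM in the other four. The leading principal component of the 6 libraries carried 62.8% of the variance and set CBP-WT 1 and CBP-AA 3 apart from the rest at the same end. Clec16a, Acta1 and several list counts and genes below are also given without CBP-WT 1 and CBP-AA 3, the richest in Defa24 of each group. That fit still holds CBP-AA 1, at 1079 TPM of Defa24, against CBP-WT 2 and 3, at 21.1 and 0.466 TPM. It therefore leaves the groups unbalanced in small intestinal transcripts and does not remove their part in a difference. In the p53-intact mice, CBP-AA library 2 held 471 TPM of Defa24 beside 0 to 23.1 TPM in the other five. CBP-AA library 1 with p53 intact had 0.683 TPM of Xist, a transcript of female cells, beside 65.9 to 168 TPM in the other 11 libraries, against the stated sex. Both bear on every p53-intact value below.

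**Figure D1:**
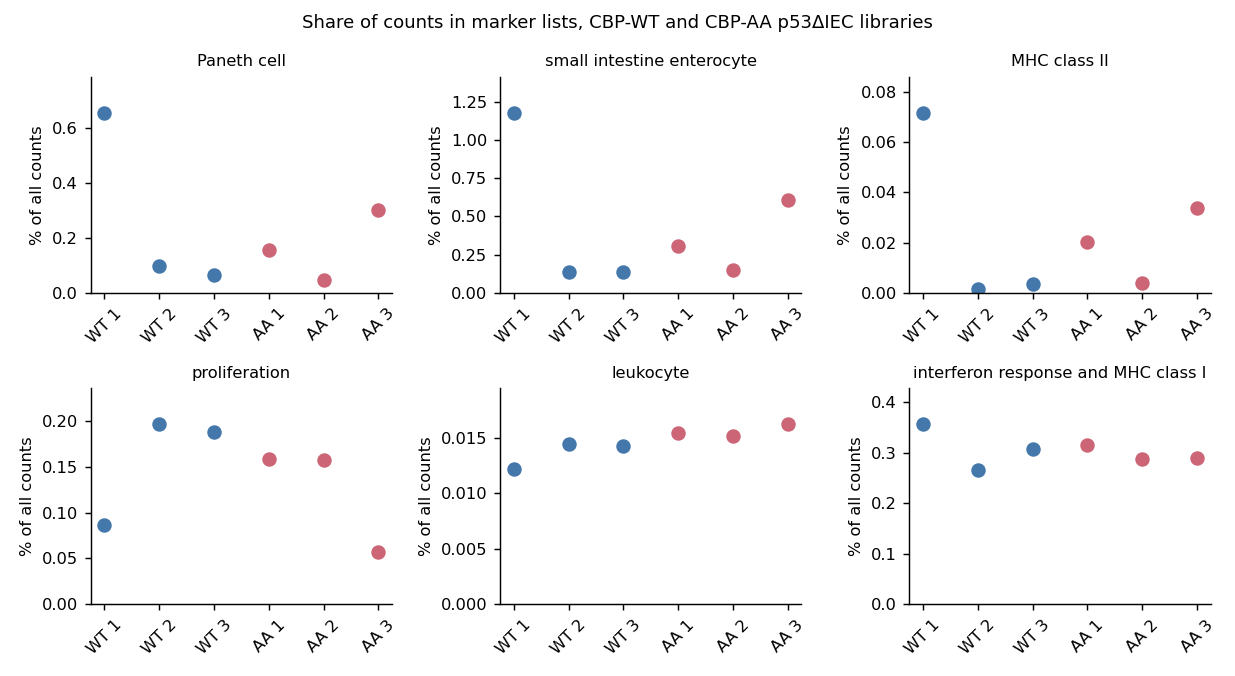
Each panel plots 1 marker list, with the percentage of all counts falling on its genes on the y axis (from 0) and the 3 CBP-WT (blue) and 3 CBP-AA (red) p53ΔIEC libraries on the x axis, 1 point per library. CBP-WT library 1 is highest for the Paneth (0.656%), small intestine (1.18%) and MHC class II (0.0715%) lists, and CBP-AA library 3 is lowest for proliferation (0.0567%).

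Clec16a, which encodes a membrane-associated regulator of autophagy and mitophagy, was the gene that passed the cutoff. It stood at 4.76, 7.36 and 7.96 TPM in CBP-WT p53ΔIEC and at 11.5, 13.2 and 13.1 TPM in CBP-AA p53ΔIEC crypts. Every CBP-AA library lay above every CBP-WT library, and the means were 6.7 ± 1.7 and 12.6 ± 0.96 TPM (SD, n = 3 mice each), a ratio of 1.88. Clec16a rose by 0.89 on the log2 scale (SE 0.11, 95% interval 0.65 to 1.13; edgeR adjusted p = 0.0269). It was 1 of 14610 genes tested to pass an adjusted p of 0.05 and a log2 fold change of 0.5 in size, which is 0.00684% of them, and no gene passed in the direction of lower expression.

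The size of the Clec16a difference was steadier than its call. Leaving out 1 of the 12 libraries at a time gave log2 fold changes from 0.80 to 0.96 and adjusted p values from 0.0403 to 0.24, with the call lost in 10 of the 12 cases, 5 of the 6 p53-intact libraries among them. With edgeR on the 6 p53ΔIEC libraries alone the value was 0.89 and the adjusted p 0.9999. Without both libraries richest in Defa24 the value was 0.75 with an adjusted p of 0.309.

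Clec16a was also higher in every CBP-AA library of the mice with p53 intact, which share no library with the comparison above. There it was at 7.85, 7.97 and 8.04 TPM in CBP-WT and at 14.7, 11.9 and 11.0 TPM in CBP-AA crypts, a log2 fold change of 0.77 (SE 0.11) that missed the threshold (edgeR adjusted p = 0.058). The difference between the log2 fold changes without and with p53 was 0.12 (SE 0.15, edgeR adjusted p = 0.778), which does not show that they are equal.

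Clec16a lies on the plus strand at chr16:10545339-10744878 (GRCm38), 6.33 Mb from Crebbp, the gene that carries the altered codons, and no exon of another gene overlaps its exons in GENCODE M21. Of 190 genes tested within 20 Mb of Crebbp, counting Clec16a and not Crebbp, 11 (5.79%) had an unadjusted p under 0.05, beside 3.57% of all genes tested. Clec16a was 1 of the 11, of which 6 had higher and 5 lower values in CBP-AA. The median log2 fold change of the 190 was -0.08, beside -0.01 for all genes tested. With p53 intact, 27 of the 190 had an unadjusted p under 0.05, beside 8.04% of all genes tested. Clec16a was the 1 of the 190 with an unadjusted p under 0.05 and the same sign in both p53 states. Of the 38 genes tested between Crebbp and Clec16a, 2 had an unadjusted p under 0.05. These were Pam16, a subunit of the mitochondrial import motor, with a log2 fold change of -0.35, and the lincRNA Gm1600 with 1.83 on 3 to 22 reads per library. On the other side of Crebbp was Nlrc3, a NOD-like receptor that dampens innate signalling, with 1.62 on 1 to 13 reads. Farther out stood Bcl6, a transcriptional repressor, with 0.62, Litaf, an endosomal protein, with -0.29, Rtp4, an interferon-induced gene, with 0.88, Aifm3 with 0.51, Klhl22 with -0.29, the translation factor subunit Eif2b5 with -0.20 and the endoplasmic reticulum chaperone Dnajb11 with -0.26. None of these passed the adjusted threshold.

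**Figure D2:**
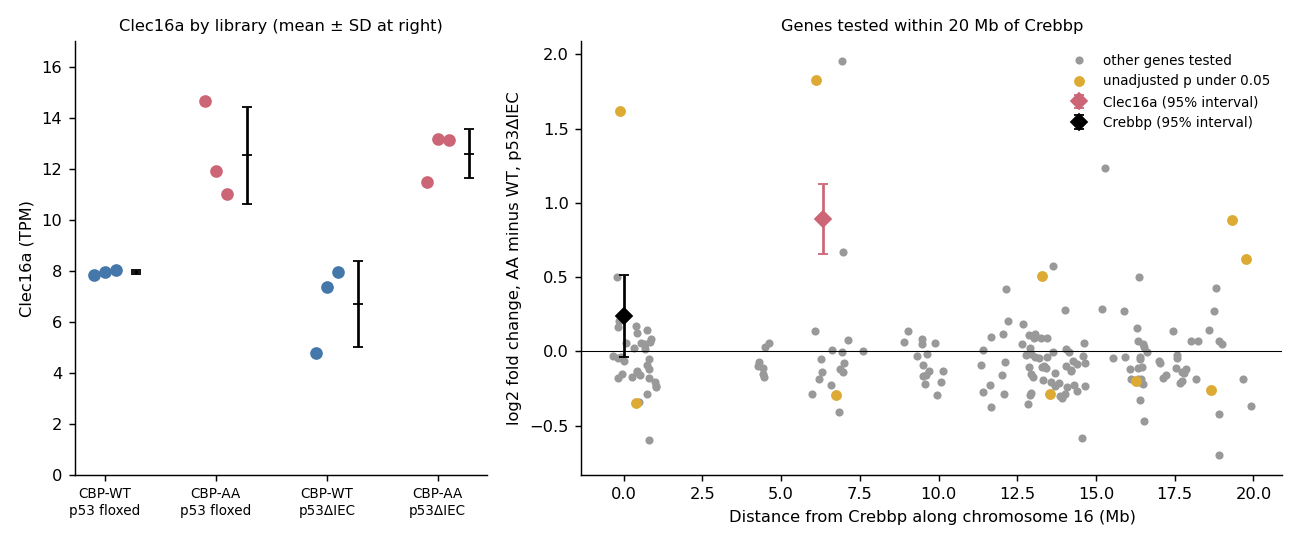
Left, Clec16a in TPM (y axis) for each library of the 4 groups, with the group mean and SD beside the points. Right, the log2 fold change of CBP-AA over CBP-WT without p53 (y axis) of the genes tested within 20 Mb of Crebbp against their distance from it in Mb (x axis); Clec16a, at 6.33 Mb, and Crebbp are shown with 95% intervals. Clec16a is above CBP-WT in all 6 CBP-AA libraries, while the 190 genes tested near Crebbp, Clec16a counted among them, center near 0.

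Beyond Clec16a the comparison was quiet. The next smallest adjusted p was 0.985, so every gene named from here on missed the threshold and is given by its values. An unadjusted p under 0.05 was reached by 521 genes (3.57%), 264 higher (1.81%) and 257 lower (1.76%) in CBP-AA. The groups did not overlap in 1353 genes (9.26%). With 3 libraries a group, many genes separate in this way even where nothing differs, so non-overlap alone is no sign of a difference. The 3 CBP-AA values lay wholly above the 3 CBP-WT values for 695 genes (4.76%) and wholly below for 658 (4.5%). The log2 fold changes ran from -0.41 at the 5th to 0.41 at the 95th percentile, and 93.1% of genes differed by less than 0.5. The 95% interval lay within -0.5 to 0.5 for 6987 genes (47.8%) and within -1 to 1 for 11821 (80.9%).

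Of the 12 highest genes 5 are known to respond to interferon, an observation made after their values were seen. The naming rule took the 12 highest log2 fold changes with an unadjusted p under 0.01, no overlap between groups and a mean of at least 1 TPM, so the non-overlap of those genes is given by the rule and is no finding. Ifi27l2a, a small interferon-induced protein, stood at 1.71, 3.25 and 2.11 TPM in CBP-WT and 8.02, 17.9 and 5.7 TPM in CBP-AA p53ΔIEC crypts. Ifi44, another interferon-induced gene, stood at 0.55, 0.681 and 0.637 TPM against 1.64, 3.2 and 1.92 TPM. Their log2 fold changes were 2.07 (95% interval 0.95 to 3.19) and 1.80 (95% interval 0.97 to 2.64). Ifi27l2a rests on 4 to 43 reads per library and Ifi44 on 17 to 102. The interferon-induced oligoadenylate synthetase genes Oas1b, annotated as a polymorphic pseudogene, at 1.29, 2.18 and 2.35 TPM against 4.94, 5.99 and 3.18 TPM, and Oas2, at 1.92, 2.06 and 3.42 TPM against 4.8, 7.31 and 4.19 TPM, had log2 fold changes of 1.24 and 1.11. Sp100, a component of nuclear bodies that interferon induces, had 1.15, and stood at 1.18, 1.24 and 0.982 TPM against 1.74, 2.8 and 3.33 TPM. In all of these the lowest CBP-AA library exceeded the highest CBP-WT library, with CBP-AA library 2 the highest in Ifi27l2a, Ifi44, Oas1b and Oas2.

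The list of interferon response and MHC class I genes gave a wider view. It was written with earlier results of these data known and also holds Oas2, so it is not separate support. All 30 of its genes were tested, 0 passed the cutoff, and 5 had an unadjusted p under 0.05, all 5 higher in CBP-AA (16.7% beside 3.57% of all genes). The values were higher in CBP-AA for 20 genes and lower for 10, and their median log2 fold change was 0.27, beside -0.01 for all genes tested. The 5 were Oas2, Oasl2 with 1.02, the ubiquitin-like Isg15 with 0.82, Irf9, the DNA-binding subunit of the ISGF3 complex, with 0.46, and Oas1a with 0.33. Oasl2 was at 15, 10.8 and 14.5 TPM in CBP-WT and 25.3, 28.5 and 31.5 TPM in CBP-AA. Isg15 was at 22, 15.9 and 34.2 TPM against 42.5, 53.7 and 33.8 TPM; scaled by the fitted library sizes these groups no longer overlapped. H2-K1 (-0.18), H2-D1 (-0.19) and B2m (-0.11), antigen presentation genes picked from the same list after their values were seen, lay near 0. The lowest value of the list was -0.50, so the list did not move as 1 block.

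The 5 genes were not evenly robust to single libraries. Without CBP-WT 1 the list held 8 genes at an unadjusted p under 0.05, without CBP-AA 3 it held 5, without CBP-AA 2 it held 2, and without CBP-WT 2 its median was 0.03. Over all genes the counts were 857 without CBP-WT 1, 443 without CBP-AA 3 and 479 without CBP-AA 2, beside 521 with all libraries. Without both libraries richest in Defa24, a fit in which CBP-AA 1 remains, the list held 7, with a median of 0.58, beside 467 over all genes. Of the 17 leukocyte markers tested, 16 had higher values in CBP-AA (median 0.40) and 1 had an unadjusted p under 0.05 (5.88% beside 3.57% of all genes). Their summed level was 65.9 to 92.9 TPM in CBP-WT and 94.5 to 99.2 TPM in CBP-AA libraries, while S100a8, S100a9 and Cpa3 were at 0 in all 6. Trbc1, a T cell receptor constant gene, was the marker at an unadjusted p under 0.05, with 3 to 5 reads in CBP-WT and 8 to 23 in CBP-AA libraries (log2 fold change 1.67). In CBP-AA library 2, the highest in Ifi27l2a, Ifi44, Oas1b and Oas2, the summed leukocyte level was 94.8 TPM, between the 94.5 and 99.2 TPM of CBP-AA 1 and 3. Every CBP-AA library lay above every CBP-WT library in this sum. The part of leukocyte RNA in the interferon values was not tested. In the mice with p53 intact, Oas2 had -0.34, Oasl2 -0.10, Isg15 0.07, Irf9 0.10, Ifi44 0.00 and Ifi27l2a -0.39 on the log2 scale. There the list's median was 0.29 with 4 of 30 genes higher at an unadjusted p under 0.05, beside 8.04% of all genes in either direction. The difference between p53 states had an edgeR adjusted p of 0.482 or more for each of Ifi27l2a, Ifi44, Oas1b, Oas2 and Sp100.

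The binding element of ISGF3, whose core holds a pair of GAAA half-sites 2 bases apart, GAAANNGAAA (TTTCNNTTTC on the other strand), was looked for in the promoters of this list. The search covered 250 bases before to 50 bases after the transcript start in RefSeq promoters (GRCm38.p6) on both strands, counting overlapping matches. Of the 21 list genes with a promoter in the table, 10 held the core (47.6%), beside 377 of 10331 tested genes with a promoter (3.65%). Of the 5 genes above, Isg15 and Oas1a held it, and the others either lacked it or had no promoter in the table. For Isg15 and Oas1a a 40-base stretch upstream of each start is given, read in the direction of transcription, with the matches in capitals.
Isg15, minus strand, chr4:156200872-156200911: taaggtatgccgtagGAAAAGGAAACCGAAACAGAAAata
Oas1a, minus strand, chr5:120907526-120907565: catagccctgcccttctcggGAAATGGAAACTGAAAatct
Among the 12 highest genes 5 had a promoter in the table, and 0 of these held the core. The list was drawn up from interferon response genes, so its excess of matches describes the list and not the CBP genotypes. A match describes the letters and is not evidence of binding.

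**Figure D3:**
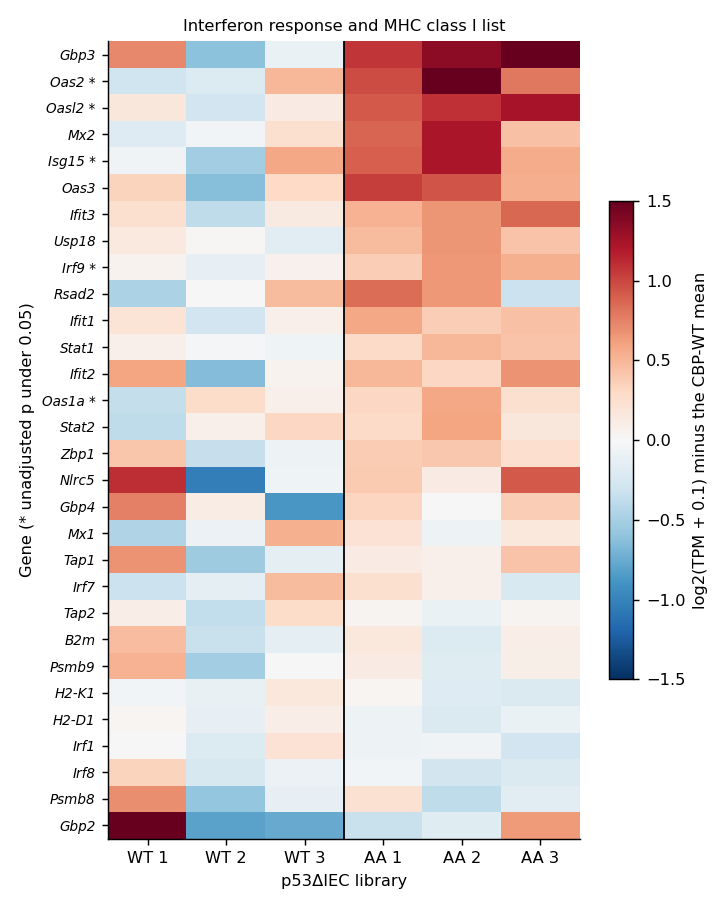
Rows are the 30 genes of the interferon response and MHC class I list, ordered by log2 fold change, columns are the 6 p53ΔIEC libraries, and the color is log2(TPM + 0.1) minus the CBP-WT mean of the gene; asterisks mark an unadjusted p under 0.05. Oas2, Oasl2 and Isg15 are higher in the CBP-AA columns, while H2-K1, H2-D1 and B2m stay near 0, and CBP-WT library 1 stands out in Gbp2 and Psmb8.

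The other genes among the 12 highest belonged to several functions. Sstr1, a somatostatin receptor, was at 14.2, 16.2 and 18 TPM in CBP-WT and 19.2, 32.5 and 40.3 TPM in CBP-AA libraries (log2 fold change 0.90). Cfap300, a cilia assembly gene, had 1.02 at 8 to 28 reads per library, and Mroh6 had 1.01 at 6 to 25 reads. Tmem254c had 1.58 and rested mainly on CBP-AA library 1, with 22.6 TPM there against 6.08 and 7.12 TPM in the other two and 2.01, 6.02 and 3.58 TPM in CBP-WT. Gm44292, an unclassified transcript, had 0.94.

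At the lower end Acta1, the alpha actin of skeletal muscle, showed the tightest groups. It was at 21.2, 22.5 and 21.0 TPM in CBP-WT and at 10.3, 11.2 and 12.3 TPM in CBP-AA p53ΔIEC crypts. The means were 21.6 ± 0.83 and 11.2 ± 0.99 TPM (SD, n = 3 each), and the log2 fold change was -0.99 (95% interval -1.43 to -0.56). With p53 intact it was at 12.9, 9.94 and 12.4 TPM in CBP-WT and 11.1, 15.7 and 12.3 TPM in CBP-AA, so that the CBP-WT p53ΔIEC libraries were the highest of all 12. Without the libraries richest in Defa24 the value was -0.97. The smooth muscle markers Acta2 and Myh11 had at most 3 and 2 reads in any of the 6 libraries. Phospho1, a phosphatase of bone mineralization, had -1.28, but its exons share bases with Zfp652 and Abi3, and Dnaaf2, a dynein assembly factor, had -0.96 with exons shared with 3 noncoding genes. Tnfrsf18, a costimulatory receptor also called GITR, had -0.94 at 11 to 30 reads per library.

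More abundant genes at the lower end differed less. Apobec1, the deaminase that edits apolipoprotein B mRNA, was at 36.2, 35 and 45.7 TPM in CBP-WT and 30.6, 26.5 and 29.5 TPM in CBP-AA (log2 fold change -0.48). Smim33, a small membrane protein gene, had -0.56, Pet100, a factor of cytochrome c oxidase assembly, had -0.56, and Gm10053 had -0.47. Also in this group were the pseudogenes Tent2-ps1 with -1.69, Gm10736 with -0.67 and Gm5422 with -0.65, whose reads may be shared with their parent genes. Exons of Smim33, Pet100 and Tnfrsf18 overlap a gene on the opposite strand.

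**Figure D4:**
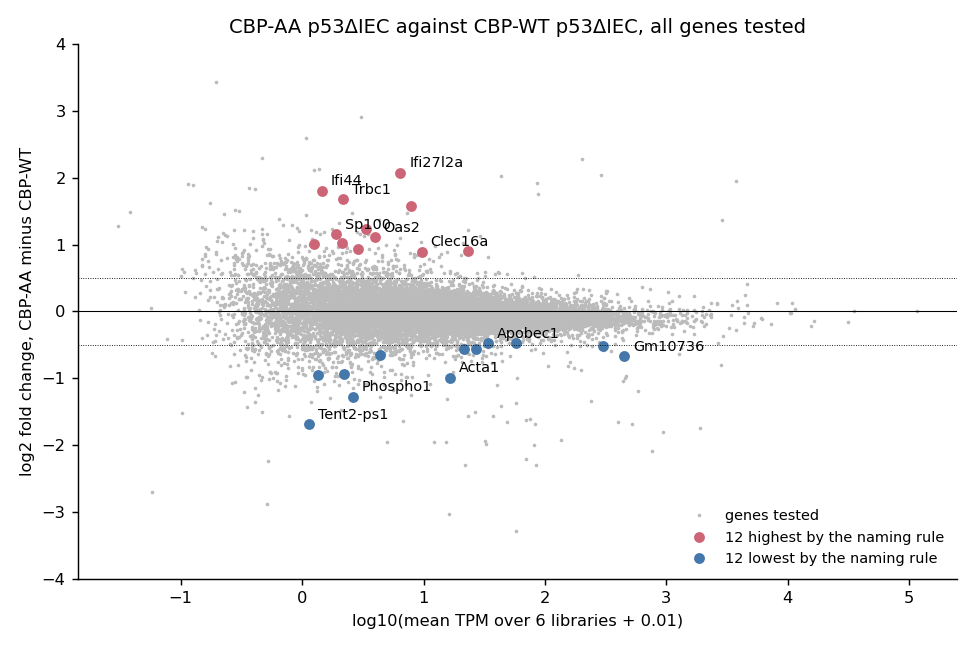
Each gray point is 1 of the 14610 genes tested, with log10 of its mean TPM plus 0.01 over the 6 libraries on the x axis and the log2 fold change of CBP-AA over CBP-WT without p53 on the y axis; dotted lines mark 0.5 in both directions. Red and blue points are the 12 highest and 12 lowest genes under the naming rule, and Clec16a is the one at the adjusted threshold.

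Beside 3.57% of all genes at an unadjusted p under 0.05 (3.15% without the libraries richest in Defa24), the lists below are given by count and share. Of 29 tested p53 targets 0 passed the cutoff and 0 had an unadjusted p under 0.05 with edgeR, with a median log2 fold change of -0.02. DESeq2 on all 12 libraries also found 0 at an unadjusted p under 0.05, and edgeR on the 6 libraries alone found 1. Cdkn1a, which encodes the cell cycle inhibitor p21, was at 180, 126.7 and 173 TPM in CBP-WT and 139, 164 and 184 TPM in CBP-AA (-0.05, 95% interval -0.48 to 0.39). Of 20 CBP, p300 and partner acetyltransferase genes, 16 had higher values (median 0.14) and 3 (15%) had an unadjusted p under 0.05, 0 of 20 without the libraries richest in Defa24. Of the 3, 2 had an unadjusted p under 0.05 and higher values, the CREB coactivators Crtc2 (0.22) and Crtc3 (0.29), and 1 had lower values, the acetyltransferase Hat1 (-0.31). Of 14 IKK and NF-κB subunit genes 1, the kinase gene Ikbke, had an unadjusted p under 0.05 (0.28). Of 18 NF-κB targets, 1 did, Duoxa2, a maturation factor of the dual oxidase, which was at 91.2, 29.5 and 40.2 TPM in CBP-WT and 32.8, 23.1 and 26.6 TPM in CBP-AA (-1.10), the value of 91.2 being that of CBP-WT library 1.

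Stem cell genes held 3 of 24 tested members at an unadjusted p under 0.05 (12.5% beside 3.57% of all genes), all with higher values in CBP-AA, and a median log2 fold change of 0.07. Without the libraries richest in Defa24 there were 4 higher and 1 lower, and Lgr5 had 0.37, Myc 0.29 and Ascl2 0.47. Lgr5, the receptor that marks crypt base stem cells, was at 3.87, 4.72 and 5.02 TPM in CBP-WT and 6.51, 5.61 and 5.79 TPM in CBP-AA p53ΔIEC crypts, with no overlap. Its log2 fold change was 0.36 (95% interval 0.09 to 0.63), beside 0.16 with p53 intact. Myc, a Wnt target and driver of growth, was at 28.3, 33.6 and 37.1 TPM against 41, 41.6 and 42.2 TPM (0.30), beside 0.40 with p53 intact. Ascl2, a stem cell transcription factor, was at 8.31, 14.5 and 12.0 TPM against 19, 16.6 and 13.3 TPM (0.45). The Notch ligands Dll4 (0.28) and Dll1 (0.63) were the 2 of 14 Notch and secretory fate genes at an unadjusted p under 0.05 (14.3%). Without the libraries richest in Defa24 the list held 1 higher and 1 lower gene at that threshold. In that fit Dll1 had 0.63 and Dll4 0.30, so the lower gene was another member of the list. Dll1 was at 5.08, 9.07 and 12.5 TPM in CBP-WT and 15.6, 16.3 and 9.76 TPM in CBP-AA, and the groups overlapped.

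All 30 proliferation genes were lower in CBP-AA p53ΔIEC than in CBP-WT p53ΔIEC, with a median log2 fold change of -0.35, but 0 passed the cutoff and 1 had an unadjusted p under 0.05, Pcna, the sliding clamp of DNA replication (-0.34). The library shares of counts on this list were 0.0869%, 0.196% and 0.187% in CBP-WT and 0.158%, 0.157% and 0.0567% in CBP-AA. The groups thus overlapped, and the 2 low libraries were those richest in Defa24. Without CBP-AA 3 the median was -0.02, and without CBP-WT 1 it was -0.62.

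Differentiated cell lists showed no member at the cutoff. Goblet (19 tested), enteroendocrine (19) and colonocyte (25) genes had 0 members at an unadjusted p under 0.05, and their medians were -0.15, -0.13 and -0.01. The tuft cell list had 1 of 17, the acetylcholine-synthesizing enzyme Chat (0.83), below 1 TPM in all 6 libraries (5.88% beside 3.57% of all genes). Of 28 cell junction genes, the claudins Cldn4 and Cldn2 had lower values at an unadjusted p under 0.05 (7.14%), and 1 gene did without the libraries richest in Defa24. Cldn4, a barrier claudin, was at 131.3, 89.8 and 184 TPM in CBP-WT and 103, 65.2 and 68.7 TPM in CBP-AA (-0.82), and Cldn2, a pore-forming claudin, was at 195, 378 and 390 TPM against 305, 211 and 191 TPM (-0.46). Both overlapped between groups. Of the 14 tested genes of the type 2 response list, 3 small proline-rich genes, Sprr2a1 (-0.42), Sprr2a2 (-0.62) and Sprr2a3 (-0.40), had lower values at an unadjusted p under 0.05 (21.4% beside 3.57% of all genes), 0 without the libraries richest in Defa24; they are near-identical copies that can share reads.

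The remaining lists held 0 to 3 members each with an unadjusted p under 0.05, up to 12.5% of a list beside 3.57% of all genes. Higher in CBP-AA were the EGFR ligand Btc (0.44) and Lrig3 (0.28) of 24 EGFR pathway genes, and the laminin chain Lamc1 (0.37) of 15 laminin and hemidesmosome genes. Lower were the amino acid enzyme Asns (-0.32) and Dnajb11 of 23 unfolded protein response genes, the sulfiredoxin Srxn1 (-0.38) and the glucuronosyltransferase Ugt2b36 (-0.39) of 26 NRF2 and xenobiotic genes, the retinaldehyde dehydrogenase Aldh1a3 (-1.36) and the retinol carrier Rbp7 (-1.07) of 16 retinoid genes, the clock repressor Cry1 (-0.49) of 19 circadian genes, and the transglutaminase Tgm2 (-0.69) of 18 antimicrobial defence genes. Among 24 immediate early and dissociation stress genes, Myc was higher and Ier5 (-0.42) and Ier3 (-0.39) were lower. Of 16 colon region genes, Sprr2a2 and Ceacam10 (-0.45) were lower. Without both libraries richest in Defa24, Aldh1a3 (-1.92), Cry1 (-0.64), Btc (0.42) and Myc (0.29) kept an unadjusted edgeR p under 0.05. The other genes named in this paragraph did not, among them Rbp7 (-0.49), Tgm2 (-0.22), Lamc1 (0.22) and Ier3 (-0.19), though all kept their sign. The lists for heat shock and cold, lipid synthesis, fatty acid oxidation, the BCL2 family, matrix, stroma, endothelium and general epithelium held 0, and of the blood genes 0 could be tested.

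Vcan encodes versican, a chondroitin sulfate proteoglycan of the extracellular matrix. It was at 0.302, 0.67 and 0.81 TPM in CBP-WT p53ΔIEC and 0.552, 0.878 and 0.523 TPM in CBP-AA p53ΔIEC crypts, and the groups overlapped. The log2 fold change was 0.12 (95% interval -0.50 to 0.74) on 22 to 66 reads per library. With p53 intact it was at 0.536, 0.813 and 0.725 TPM in CBP-WT and 0.25, 0.203 and 0.254 TPM in CBP-AA crypts, a log2 fold change of -1.44. The difference between the 2 states, 1.56, had an edgeR adjusted p of 0.482.

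The medians of the Paneth, small intestine enterocyte and MHC class II lists turned in sign with 1 library. Paneth genes had a median log2 fold change of -1.38 with all 6 libraries and 6.36 without CBP-WT 1. MHC class II genes had -0.50 and 2.49, and small intestine enterocyte genes -0.41 and 1.97, respectively. In none of these 3 lists did a gene reach an unadjusted p under 0.05 with all 6 libraries.

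**Figure D5:**
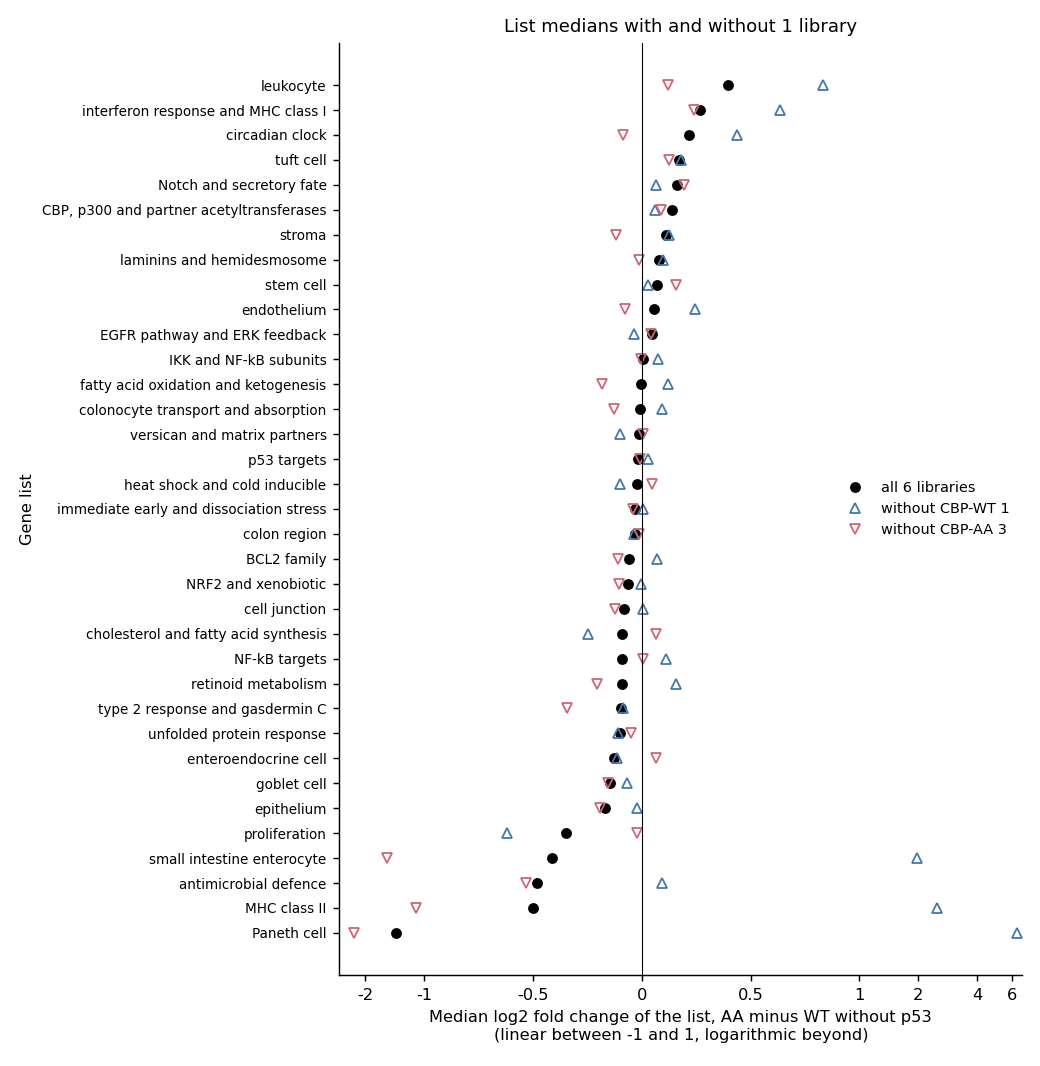
Rows are gene lists and the x axis is the median log2 fold change of the tested genes of a list, CBP-AA over CBP-WT without p53, linear between -1 and 1 and logarithmic beyond. Circles use all 6 libraries, upward triangles leave out CBP-WT library 1 and downward triangles leave out CBP-AA library 3; the Paneth median goes from -1.38 to 6.36 without CBP-WT 1, while the p53 target median is -0.02, 0.03 and -0.01 in these 3 fits.

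The contrast was finally set beside the same contrast in mice with p53 intact. There 0 of 14610 genes passed the cutoff with edgeR (0.0%), 1174 had an unadjusted p under 0.05 (8.04%), and DESeq2 called 33. Across genes, which are not independent replicates, the log2 fold changes of the 2 contrasts had a Pearson correlation of -0.31 that depended on the libraries. It was 0.53 without CBP-WT p53ΔIEC 1, -0.10 without CBP-AA p53-intact 2, -0.13 without CBP-AA p53ΔIEC 2 and -0.08 with a small intestine score as a covariate. Spearman's rho was -0.31 with all libraries and 0.03 without CBP-WT p53ΔIEC 1. Of the 13 genes with an unadjusted p under 0.01 in both contrasts, 3 had the same sign, namely Clec16a, Myc and Nradd, a death-domain receptor homolog. A test of the difference between the contrasts called 1 gene of 14610 (0.00684%), the pseudogene Gm10736.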

How the data were processed

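RNA from EDTA-released crypts, 1 mouse per library, was sequenced by the authors after a stranded mRNA preparation per the labels; the study's methods name the kit without strand. The submitters' processing notes name fastp 0.20.0, FastQC 0.11.9, HISAT2 2.1.0, SAMtools 1.9, featureCounts (Subread 2.0.1) and GRCm38. The strand setting of the counting and the treatment of reads with several matches were not given in the sources used here, so overlapping and duplicated genes are uncertain. The deposited raw read counts per gene were tested, and the TPM values computed by the authors gave levels. The authors' log2 fold changes and p-values in the deposited table were not used. Gene positions came from GENCODE M21, in which 55230 of 55471 identifiers were found.

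Counts were tested with the robust quasi-likelihood test of edgeR 4.0.16 after TMM scaling and Benjamini-Hochberg adjustment, low genes being removed by filterByExpr (10 reads), in 1 model of the 4 groups and all 12 libraries. A gene was called at an adjusted p under 0.05 with a log2 fold change over 0.5 in size. p-values are 2-sided and measure the spread between mice. The contrasts were CBP-AA minus CBP-WT without p53, the same with p53 intact, and their difference. DESeq2 1.42.0, other filters and scalings, a replicate block and each library left out were alternatives. The fits were tested on simulated counts. Members and lists were chosen with earlier results of these data known. Named genes were those called; the 12 highest and 12 lowest log2 fold changes with an unadjusted p under 0.01, a mean of at least 1 TPM and groups not overlapping in CPM; up to 4 genes of smallest p in each list, of which those with p under 0.05 are printed with a fold change; Trp53, Crebbp, Ep300, Vcan, Cdkn1a and Lgr5; genes with p under 0.05 within 20 Mb of Crebbp; and the 5 smallest p of the difference. 1 gene that the rule names is not reported here. H2-K1, H2-D1, B2m, Acta2, Myh11, Nradd and the region markers were chosen after their values were seen. Same-numbered libraries did not deviate together, so the replicate numbers were not treated as pairs.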

Additional observations from a re-analysis of the deposited data

Results flagged for a closer look

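Gm10736, a processed pseudogene at chr13:111593534-111593611 (GRCm38), differed between the p53 states in its response to the CBP genotype. It stood at 504, 501 and 633 TPM in CBP-WT p53ΔIEC and at 357, 375 and 329 TPM in CBP-AA p53ΔIEC crypts, a log2 fold change of -0.67 (SE 0.15). With p53 intact it was at 354, 374 and 361 TPM in CBP-WT and at 616, 674 and 741 TPM in CBP-AA crypts, a log2 fold change of 1.04 (SE 0.15). The difference, -1.71 (SE 0.21), was tested as an interaction term (edgeR adjusted p = 0.0222). The call was kept in 3 of 12 fits with 1 library left out (edgeR adjusted p from 0.00665 to 0.154), and lost with the replicate block (0.176) and without both libraries richest in Defa24 (0.115), while the value stayed between -1.84 and -1.56. Its annotated transcript of 78 bases is contained without mismatch in 3 of 7 annotated transcripts of the ribosomal protein gene Rpl41, so its reads cannot be assigned with certainty. Rpl41 itself had log2 fold changes of -0.04 without and 0.09 with p53. The next 4 genes by the p of the interaction were Gm44292 (1.91), Arhgap20 (1.25), Plagl1 (1.73) and Klhl42 (1.11), none of them past the adjusted threshold with edgeR.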

How the results depend on the processing

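The call of Clec16a was kept with DESeq2 on all 12 libraries, with DESeq2 on the 6 p53ΔIEC libraries, with DESeq2 size factors, with a mean of at least 1 CPM, with no filter and with a small intestine score as a covariate, the last chosen after seeing the data. Its value was 0.89 and its call was lost with edgeR on the 6 p53ΔIEC libraries, and it was 0.75, also without the call, without both libraries richest in Defa24, an alternative chosen after seeing the data. Leaving out 1 library gave 0.80 to 0.96. Over all alternatives its adjusted p ran from 2.84e-08 to 0.9999. The genes at the cutoff without p53 numbered 2 with DESeq2 on the 6 libraries (Clec16a and Ifi44, adjusted p = 0.0463), 0 with edgeR on the 6, 0 without both Defa24-rich libraries, and 0 to 1 with 1 library left out; the cause was not tested.

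With the replicate block, 0 genes passed without p53 and 0 for the difference between p53 states, and Clec16a had 0.89 (adjusted p = 0.158); same-numbered CBP-WT and CBP-AA p53ΔIEC libraries had correlations of their deviations of -0.07, 0.55 and -0.53, so the numbers did not pair the samples.

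Genes at an unadjusted p under 0.05 numbered 300 with DESeq2 on the 6 libraries, 1245 with the small intestine score and 415 to 857 with 1 library left out, the 857 without CBP-WT p53ΔIEC 1. Genes without overlap numbered 5070 without both Defa24-rich libraries and 2206 to 3475 with 1 left out, where fewer libraries overlap less. With p53 intact, the count at the cutoff was 33 with DESeq2, 12 without both Defa24-rich libraries, 5 with the small intestine score, 3 with no filter and 0 to 2 with 1 library left out. For the difference it was 30 with DESeq2, 0 without both Defa24-rich libraries, 5 with the small intestine score, 2 with no filter and 0 to 1 with 1 left out. Cdkn1a changed sign to 0.082 without both Defa24-rich libraries and lay between -0.22 and 0.21 with 1 left out, and Vcan between -0.14 and 0.30.

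Of 1562 values of 75 named genes under the alternatives, 5 changed sign. These genes were largely chosen for a small p in these same data, which makes a change of sign unlikely, so the count does not measure stability. With 3 libraries a group the median standard error of a log2 fold change was 0.172, which limits the differences that could be detected.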
